A study of Mus musculus with 17 samples.

Results

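The tripartite motif (TRIM) genes were followed across 17 mouse RNA sequencing libraries, taken as every row of the deposited count tables whose symbol is Trim followed by a digit. Of 55491 gene rows, 69 matched, and a gene was kept in a table when its CPM (its count after scaling each library to a total of 1000000) averaged at least 0.5 over all libraries of that table. This left 42 genes in B cells and 41 in BMDC, dendritic cells derived from bone marrow that present antigen, 44 in either and 39 in both. Every kept gene was also tested. The B cell libraries are labelled as spleen lymphocytes and the BMDC libraries as bone marrow cells. In each cell type, one group received MSA2, a non-nucleotide agonist of the innate immune adaptor STING, and another received MSA2 with IPI-549, an inhibitor of the lipid kinase PI3K gamma (the combination here). Control cells received no drug. There were 3 libraries in each group except the BMDC combination, which had 2. The genotype label of every group reads WT, whereas the series description names KPC mice, a model of pancreatic cancer. All 17 libraries carry Control as their treatment label, so groups were taken from the titles. IPI-549 was not given alone, and the labels state no dose, time or age and do not say whether replicates came from separate mice. P-values therefore measure the spread between these libraries, which may be technical.

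TRIM proteins typically carry a RING finger, B-box zinc fingers and a coiled coil, followed by a C-terminal domain that binds the target. Most act as ubiquitin E3 ligases. Many work in the innate response to viral nucleic acid, where they switch sensors and adaptors such as RIG-I, MDA5, cGAS and STING on or off, and several are themselves induced by interferon. The TIF1 subgroup instead represses transcription on chromatin, and primate TRIM5, a relative of the mouse genes clustered on chromosome 7, blocks retroviral capsids.

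Promoters were searched because interferon acts through the interferon-stimulated response element (ISRE). RefSeq promoters of the GRCm38.p6 build, 250 bases before to 50 after the start site, were given for 33 of the 44 kept genes. The ISRE-type letters, a pair of GAAA blocks with any 2 bases between them, on either strand, stood in promoters of 9 of these 33 genes (27.3%), against 1079 of 27025 genes in the whole RefSeq table (3.99%). The matched genes were Trim2, Trim5, Trim12a, Trim12c, Trim21, Trim26, Trim30a, Trim30d and Trim34a. Neighbouring genes of the chromosome 7 cluster share sequence and are not independent matches. The GAS-type letters (TTCC, any base, GGAA) and the NF-kB-type letters (GGGA, any base, TTTCC), on either strand, stood in none of the 33, against 1.35% and 0.466% of all genes in the table. The stretches below are shown because the first 4 belong to genes whose level rose with MSA2 in BMDC, while the others are cluster neighbours that carry the same letters. Each reads 5′ to 3′ on the strand of the gene, with the match, including overlapping matches, in capitals. They lie at chr7:102565453-102565509 (Trim21, minus strand), chr17:36836946-36837041 (Trim26, plus), chr7:104244427-104244486 (Trim34a, plus), chr7:104315466-104315525 (Trim12a, minus), chr7:104353329-104353418 (Trim12c, minus), chr7:104288106-104288195 (Trim5, minus), chr7:104465180-104465269 (Trim30a, minus) and chr7:104507841-104507930 (Trim30d, minus).
Trim21: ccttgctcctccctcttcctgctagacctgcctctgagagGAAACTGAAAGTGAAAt
Trim26: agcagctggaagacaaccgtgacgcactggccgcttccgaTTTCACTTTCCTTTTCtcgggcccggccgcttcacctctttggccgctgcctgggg
Trim34a: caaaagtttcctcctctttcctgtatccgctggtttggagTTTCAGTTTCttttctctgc
Trim12a: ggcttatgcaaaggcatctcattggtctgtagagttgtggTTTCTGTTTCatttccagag
Trim12c: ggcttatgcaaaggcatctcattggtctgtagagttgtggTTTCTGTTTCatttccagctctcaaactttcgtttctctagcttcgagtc
Trim5: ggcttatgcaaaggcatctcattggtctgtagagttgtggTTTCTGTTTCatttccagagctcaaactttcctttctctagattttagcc
Trim30a: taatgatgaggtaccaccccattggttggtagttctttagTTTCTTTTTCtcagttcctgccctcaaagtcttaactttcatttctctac
Trim30d: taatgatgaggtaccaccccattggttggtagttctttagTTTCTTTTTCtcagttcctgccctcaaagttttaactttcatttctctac

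Over the match and the 40 bases before it, Trim12a, Trim12c and Trim5 were identical at 50 of 50 bases, and so were Trim30a and Trim30d. These letters describe the windows. They are not evidence that a factor binds there.

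Total counts ranged from 34760025 to 73166643 per library in BMDC and from 41093440 to 51433008 in B cells. TRIM genes took 0.112 to 0.133% of the counts in BMDC libraries and 0.190 to 0.222% in B cell libraries. The BMDC libraries held dendritic cell markers at a summed 1750 to 2153 CPM and monocyte markers at 13550 to 18810 CPM, while T cell markers summed to at most 16.0 CPM and B cell markers to at most 53.4 CPM. They also held neutrophil markers at 726 to 1000 CPM and mast cell and basophil markers at 25.7 to 34.6 CPM. In B cell libraries dendritic cell markers summed to 1058 to 1315 CPM with MSA2, 1420 to 1760 CPM with the combination and 1190 to 1446 CPM in Control. The B cell libraries differed in make-up by group, and the labels and series description give no purification step, so how pure each group was is not known here. Every MSA2 value in B cells below is a value of these mixed-marker libraries. B cell markers summed to 8435 to 9653 CPM in MSA2 libraries, 13310 to 14370 CPM in combination libraries and 13000 to 14200 CPM in Control libraries. T cell markers summed to 1119 to 1350 CPM with MSA2, 8.34 to 10.2 CPM with the combination and 13.3 to 38.1 CPM in Control. Neutrophil markers summed to 1597 to 1674 CPM with MSA2, 0.506 to 0.974 CPM with the combination and 2.16 to 33.9 CPM in Control, and monocyte markers to 1767 to 2050, 342 to 379 and 324 to 354 CPM. Natural killer (NK) cell markers summed to 355 to 435 CPM with MSA2, 6.56 to 10.7 CPM with the combination and 14.3 to 19.9 CPM in Control, and mast cell and basophil markers to 27.1 to 34.0, 2.03 to 2.98 and 1.97 to 2.81 CPM. All 12 markers of T cells, all 12 of monocytes, all 12 of neutrophils, all 10 of NK cells and all 8 of mast cells and basophils were called higher with MSA2 than in Control, and 11 of 12 B cell markers were called lower. Cd3e and Bcl11b of the T cell list had 0 counts in the combination libraries. The 3 MSA2 libraries of B cells carry higher library numbers than all those of the combination and Control, so library order and MSA2 cannot be told apart in B cells. In these bulk samples fewer cells of a type and less RNA per cell cannot be told apart either.

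The resting level of the TRIM genes was compared first, between untreated BMDC and untreated B cells. More members were called lower than higher in BMDC, as a share of each library. Of 44 genes, 12 were called higher in BMDC Control (27.3%) and 24 lower (54.5%) (edgeR quasi-likelihood test, Benjamini-Hochberg adjusted p under 0.05). Of the 17740 genes tested, 39.3% were called higher and 40.6% lower. The share called in either direction, 81.8% of the members, was near the 79.9% of all genes. The median log2 fold change was -0.48 over the members and -0.07 over all genes. Cell type and sequencing project cannot be told apart here, since each cell type has its own table and numbering.

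The antiviral cluster on chromosome 7, from Trim6 at 104218793 to Trim30d at 104507849, had 1 gene called higher and 8 lower of 10 in BMDC Control against B cell Control. The shares of all genes tested were 39.3% and 40.6%. Trim30b had 1.90, 2.13 and 1.64 CPM in BMDC Control, against 25.7, 24.8 and 23.1 CPM in B cell Control. The groups did not overlap, and the log2 fold change was -3.58 ± 0.12 (SE, adjusted p = 3.85e-15). Trim34a (log2 fold change -2.17 ± 0.13), Trim12a (-2.0 ± 0.08) and Trim5 (-1.58 ± 0.10) were also lower in BMDC. Trim6 was the 1 gene called higher, at 3.15, 3.07 and 2.48 CPM in BMDC Control and 0.439, 0.175 and 0.315 CPM in B cell Control. Trim34b had 4 counts in all over the BMDC Control libraries. Trim6 and Trim29 passed the 0.5 CPM rule in the BMDC table alone, and Trim10, Trim17 and Trim34b in the B cell table alone, so the direction of these 5 differences between cell types comes with the choice of members and is given as a description. Part of this RNA cannot be assigned with certainty, because 56.8% of the 50-base words of Trim34b also occur in other genes, chiefly Trim34a, and 36.3% of those of Trim5, chiefly in Trim12c.

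Among the other members, Trim47 stood at 12.3, 10.6 and 11.4 CPM in BMDC Control and at 0.180, 0.197 and 0.135 CPM in B cell Control (log2 fold change 6.14 ± 0.21, adjusted p = 5.62e-15). Trim13, an endoplasmic reticulum ligase, had 10.3, 9.90 and 9.57 CPM in BMDC Control and 1.62, 1.44 and 1.21 CPM in B cell Control (2.90 ± 0.16, adjusted p = 6.92e-12). Both genes separated the cell types without overlap. Trim29, an epithelial and airway member, had 219 counts over the BMDC Control libraries and 0 over the B cell Control libraries. With 0 replaced by 3 counts over the group, it was at least 92.1-fold higher in BMDC. Trim7, known for binding glycogenin, was at 6.49, 6.07 and 5.04 CPM in BMDC Control and 79.2, 73.1 and 67.1 CPM in B cell Control (-3.53 ± 0.14, adjusted p = 5.88e-14). Trim10, a gene of red cell precursors, had 0 counts in all BMDC libraries. Per kilobase of annotated exon, Trim28 led in BMDC Control at 29.2 CPM per kb, then Trim25 at 27.7 and Trim35 at 24.0. In B cell Control, Trim25 led at 66.1 CPM per kb, then Trim28 at 41.6.

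The effect of the STING agonist in the BMDC libraries was read from MSA2 against Control. RNA of the RIG-I ligase Trim25, the antibody receptor Trim21 and several genes of the chromosome 7 cluster rose, by up to 2.57-fold, while the sensing regulators Trim65, Trim14, Trim32, Trim11 and Trim8 fell. Of 41 genes, 9 were called higher and 7 lower (39.0% in either direction), against 14.6% and 13.5% of the 14614 genes tested (28.2% in either direction). The median log2 fold change was -0.04 for the members and -0.01 for all genes. With upper quartile library factors the split was 8 higher and 10 lower. B cell markers summed to 36.8 to 38.3 CPM with MSA2 and 48.4 to 53.4 CPM in Control, and erythroid markers to 150 to 177 CPM with MSA2 and 110 to 122 CPM in Control. Their part in the BMDC changes was not tested.

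**Figure D1:**
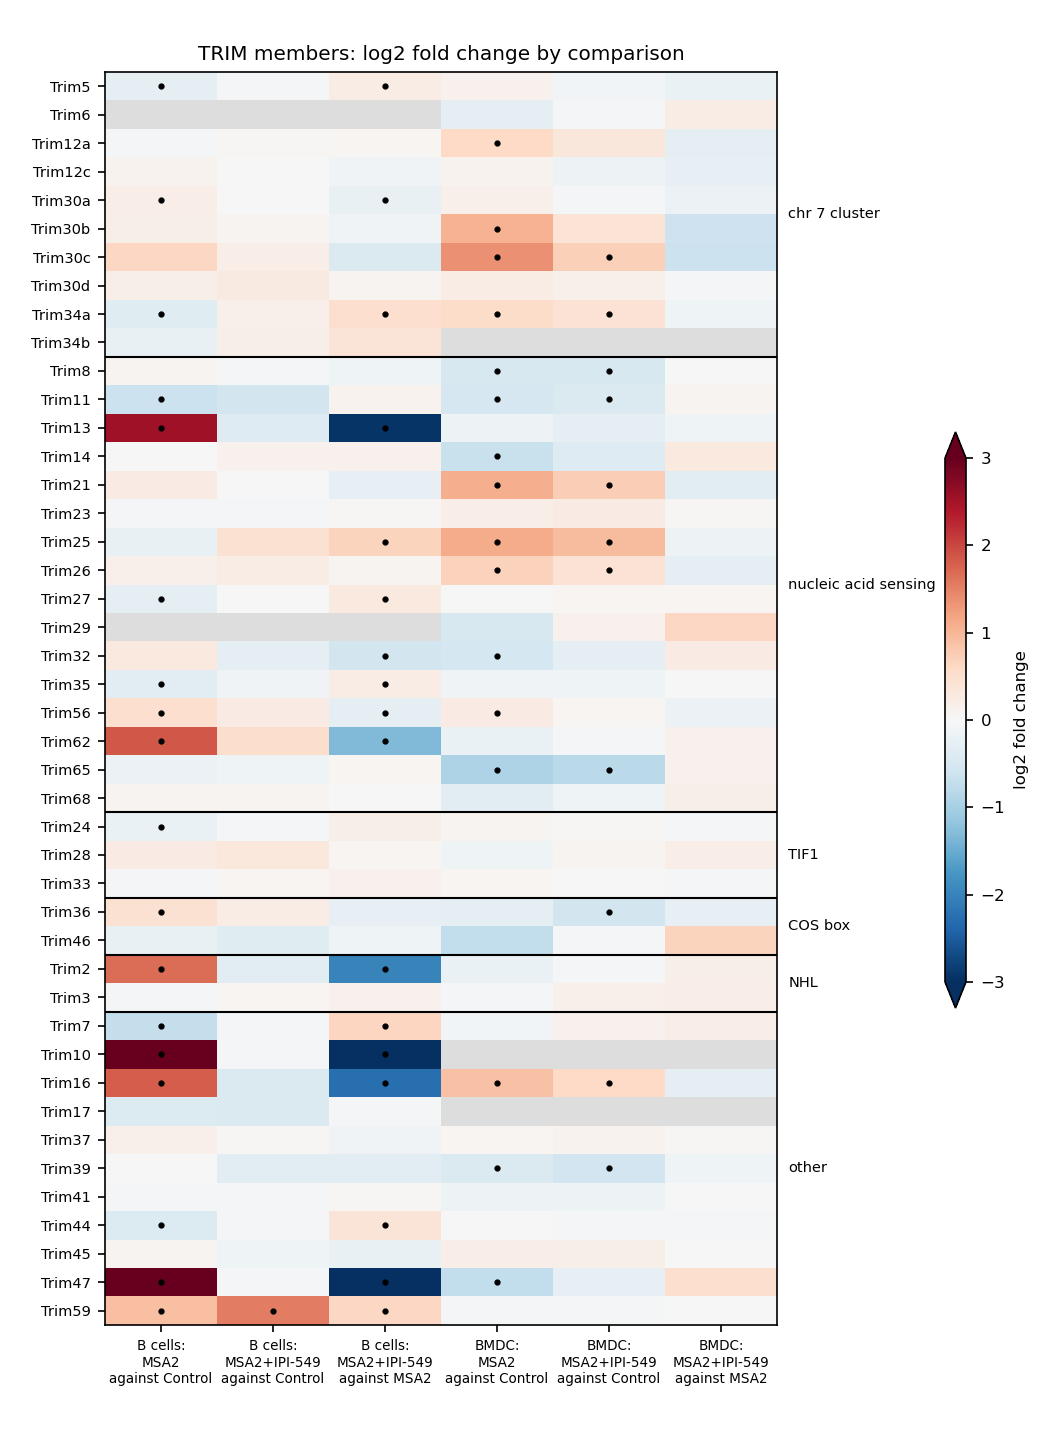
Log2 fold changes of the 44 kept TRIM genes (rows, by role) in the 6 comparisons within a cell type (columns). Colours are cut at -3 and 3, a black dot marks an adjusted p under 0.05 in edgeR's quasi-likelihood test, and grey marks a gene not kept in that cell type; the combination against Control in B cells has 1 dot, at Trim59, and the combination against MSA2 in BMDC has 0.

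Among regulators of nucleic acid sensing, 4 of 16 genes rose and 5 fell with MSA2 in BMDC, against 14.6% and 13.5% of all genes tested. Trim25 (chromosome 11, 88999376 to 89020293) had 337, 340 and 356 CPM with MSA2, against 159, 159 and 160 CPM in Control. It was more than doubled in every library (log2 fold change 1.11 ± 0.06, SE; adjusted p = 1.51e-07). Trim21 (chromosome 7, 102557921 to 102565486), a cytosolic receptor for antibody-coated viruses, had 35.8, 24.5 and 28.4 CPM with MSA2, against 12.8, 14.5 and 14.2 CPM in Control (1.09 ± 0.13, adjusted p = 7.35e-05). The MSA2 libraries spread more for Trim21 than for Trim25, but none reached down to Control. Trim26 (chromosome 17, 36837134 to 36859398), a ligase reported to act on IRF3, had 66.8, 62.7 and 64.1 CPM with MSA2 and 40.4, 38.1 and 40.5 CPM in Control (0.70 ± 0.06, adjusted p = 1.11e-05). Trim56, a ligase linked to cGAS and STING, had 32.7, 28.1 and 32.1 CPM with MSA2 and 26.4, 25.1 and 27.1 CPM in Control (0.24 ± 0.08, adjusted p = 0.0365). This smallest call was lost on leaving out any of 7 of the 8 BMDC libraries in turn, with an adjusted p up to 0.125, all but MSA2 replicate 2.

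**Figure D2:**
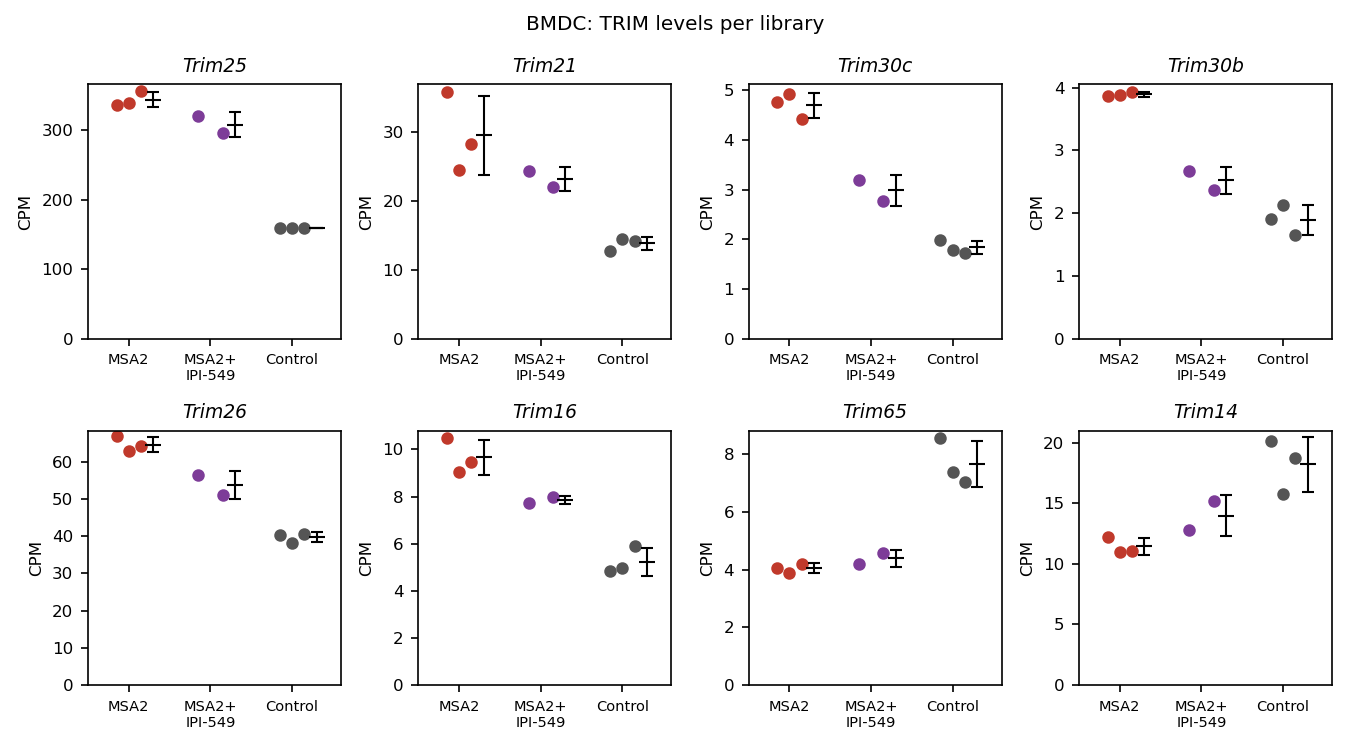
TMM-scaled CPM of 8 TRIM genes in each BMDC library, by group; points are libraries, and the bar beside them is the mean with SD (n = 3, 2 and 3). For Trim25, Trim26, Trim30c and Trim16 the MSA2 libraries are highest, the combination libraries next and the Control libraries lowest, and for Trim65 and Trim14 the Control libraries are highest.

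The chromosome 7 cluster had 4 genes called higher and 0 lower of 9 in BMDC with MSA2, against 14.6% and 13.5% of all genes tested. Its median log2 fold change was 0.22. Trim30c had 4.76, 4.93 and 4.43 CPM with MSA2, against 1.99, 1.79 and 1.73 CPM in Control (1.36 ± 0.14, adjusted p = 2.57e-05). Trim30b had 3.86, 3.88 and 3.93 CPM with MSA2 and 1.90, 2.13 and 1.64 CPM in Control (1.04 ± 0.15, adjusted p = 0.000331). Both were more than doubled on average, without overlap, yet at a low level. Trim12a had 23.5, 28.6 and 25.5 CPM with MSA2 and 16.8, 16.5 and 18.4 CPM in Control (0.59 ± 0.09, adjusted p = 0.000597). Trim34a had 23.8, 19.9 and 23.3 CPM with MSA2 and 16.2, 15.5 and 13.6 CPM in Control (0.56 ± 0.10, adjusted p = 0.00211), and 39.8% of its 50-base words occur elsewhere, chiefly in Trim34b. Trim30a, which restrains NF-kB signalling through TAB2 and TAB3, was not called, at 68.9, 74.9 and 73.7 CPM with MSA2 and 65.6, 63.9 and 66.0 CPM in Control (0.15 ± 0.08, adjusted p = 0.162). Of the 9 genes with an ISRE-type match, 4 were called higher and 0 lower. Of the 22 tested genes with a promoter and no match, 4 were called higher and 3 lower. The shares of all genes tested were 14.6% and 13.5%. Matched genes of the chromosome 7 cluster share promoter sequence and are not independent. Whether these letters had a part in the changes was not tested. Trim25, Trim30b and Trim30c are among those without these letters in the window.

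Outside these groups, Trim16, a member without a RING that takes part in clearing damaged lysosomes, had 10.5, 9.04 and 9.46 CPM with MSA2, against 4.82, 4.97 and 5.91 CPM in BMDC Control (0.88 ± 0.11, adjusted p = 0.000123). Trim39, an inhibitor of the anaphase-promoting complex, had 7.97, 8.48 and 7.74 CPM with MSA2 and 10.1, 12.3 and 10.5 CPM in Control (-0.44 ± 0.10, adjusted p = 0.0071).

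Trim65, the ligase that activates MDA5, fell in BMDC to 4.05, 3.88 and 4.21 CPM with MSA2, against 8.56, 7.37 and 7.03 CPM in Control (-0.92 ± 0.11, adjusted p = 0.000131). RNA of Ifih1, which encodes MDA5, averaged 405 ± 86 CPM with MSA2 and 32.1 ± 2.2 CPM in Control (SD, n = 3 each), so ligase and target moved in opposite directions. Trim47, whose annotated exons overlap those of Trim65 on the same strand over 8.2% of its exon bases, had 6.63, 7.05 and 6.75 CPM with MSA2 and 12.3, 10.6 and 11.4 CPM in Control (-0.74 ± 0.09, adjusted p = 0.000103). Trim14, an adaptor at MAVS, had 12.3, 11.0 and 11.1 CPM with MSA2 and 20.2, 15.8 and 18.8 CPM in Control (-0.67 ± 0.11, adjusted p = 0.000726). Exons of Nans on the opposite strand overlap 31.3% of the exon bases of Trim14, and the strand of the libraries is not stated. Trim32, a STING ligase and muscle protein, had 5.49, 4.28 and 4.56 CPM with MSA2 and 7.37, 6.30 and 6.86 CPM in Control (-0.52 ± 0.12, adjusted p = 0.00811). Trim11 had 12.9, 11.7 and 13.2 CPM with MSA2 and 16.6, 19.8 and 16.6 CPM in Control (-0.50 ± 0.09, adjusted p = 0.00188), and Trim8 fell by 0.49 ± 0.09 (adjusted p = 0.00214). For each of these genes the highest MSA2 library lay below the lowest Control library.

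With the combination in BMDC, the direction and order of these changes could be set beside Control, though with 2 libraries. Of 41 genes, 6 were called higher and 5 lower (26.8%), against 7.51% and 5.38% of all genes tested (12.9% in either direction). Trim25 had 321 and 296 CPM with the combination, against 159, 159 and 160 CPM in Control (0.95 ± 0.06, adjusted p = 2.03e-06). Trim21 had 24.4 and 22.0 CPM with the combination (0.75 ± 0.14, adjusted p = 0.00448), Trim30c 3.20 and 2.77 CPM (0.70 ± 0.16, adjusted p = 0.0121) and Trim16 7.74 and 7.99 CPM (0.59 ± 0.12, adjusted p = 0.00843). All these libraries stood above their Control libraries given above. Trim26 (0.44 ± 0.07) and Trim34a (0.43 ± 0.12) were called higher too. Trim65 had 4.19 and 4.58 CPM with the combination (-0.80 ± 0.13, adjusted p = 0.00192), below all 3 Control libraries. Trim36, a cytoskeleton-associated member, had 33.1 and 30.1 CPM with the combination and 46.9, 40.7 and 52.5 CPM in Control (-0.56 ± 0.12, adjusted p = 0.0101). Trim39 (-0.57 ± 0.12), Trim8 (-0.47 ± 0.10) and Trim11 (-0.43 ± 0.10) were the other calls. The count dropped to 4 without combination replicate 1 and to 7 without combination replicate 2. Without replicate 1 the calls of Trim21 (adjusted p = 0.0642), Trim30c (0.126) and Trim8 (0.138) were lost, and without replicate 2 that of Trim39 (0.089). The calls of Trim16, Trim36 and Trim11 were lost without either library, with adjusted p up to 0.0673, 0.116 and 0.127, and Trim11 also without Control replicate 2. Trim34a was lost without combination replicate 1 or Control replicate 2 or 3 (adjusted p up to 0.301).

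Set directly against MSA2, the combination in BMDC called 0 of 41 genes, and 0% of the 14614 genes tested, in edgeR. At an unadjusted p under 0.05 there were 12 TRIM genes. DESeq2 called 1, Trim47 (adjusted p = 0.0358), and edgeR without a filter on low counts called 3, Trim47, Trim21 and Trim30c. Trim47 had 9.46 and 9.80 CPM with the combination and 6.63, 7.05 and 6.75 CPM with MSA2 (0.50 ± 0.10, adjusted p = 0.152 in the main fit). Trim30c had 3.20 and 2.77 CPM with the combination and 4.76, 4.93 and 4.43 CPM with MSA2 (-0.66 ± 0.15, adjusted p = 0.193). Neither pair overlapped.

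In B cells the same comparison, MSA2 against Control, gave a different set of genes. Trim10, Trim13, Trim47, Trim62, Trim16 and Trim2 rose by more than 2-fold, Trim59 and Trim56 rose less, and Trim7, Trim11, Trim44 and Trim34a fell. Of 42 genes, 10 were called higher and 8 lower (42.9%), against 24.9% and 18.5% of the 16180 genes tested (43.4% in either direction), so the share called was near that of all genes. The median log2 fold change was 0.08 for the members and -0.01 for all genes. The MSA2 libraries are those with the raised T cell, neutrophil and monocyte markers and the lowered B cell markers. The part of these markers in the changes below was not tested.

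Trim10 (chromosome 17, 36869574 to 36877833) had 5.43, 5.82 and 6.40 CPM in MSA2 B cell libraries, against 0.160, 0.153 and 0.315 CPM in Control (4.81 ± 0.30, adjusted p = 2.31e-07). Erythroid markers summed to 1193 to 1434 CPM in these MSA2 libraries, 157 to 211 CPM in combination libraries and 138 to 189 CPM in Control, and 8 of 9 were called higher. Trim58, another gene of red cell precursors, fell under the 0.5 CPM rule, with 0.447 CPM as its highest group mean. Trim47 had 1.09, 1.42 and 1.82 CPM with MSA2 and 0.180, 0.197 and 0.135 CPM in Control (3.06 ± 0.33, adjusted p = 1.74e-05). Trim10 and Trim47 passed the rule in B cells through the MSA2 group, so part of their difference comes with the choice of members. Trim13 had 9.82, 8.20 and 7.01 CPM with MSA2 and 1.62, 1.44 and 1.21 CPM in Control (2.55 ± 0.20, adjusted p = 1.73e-06). A share of 14.2% of its 50-base words also occurs in Gm9359.

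**Figure D3:**
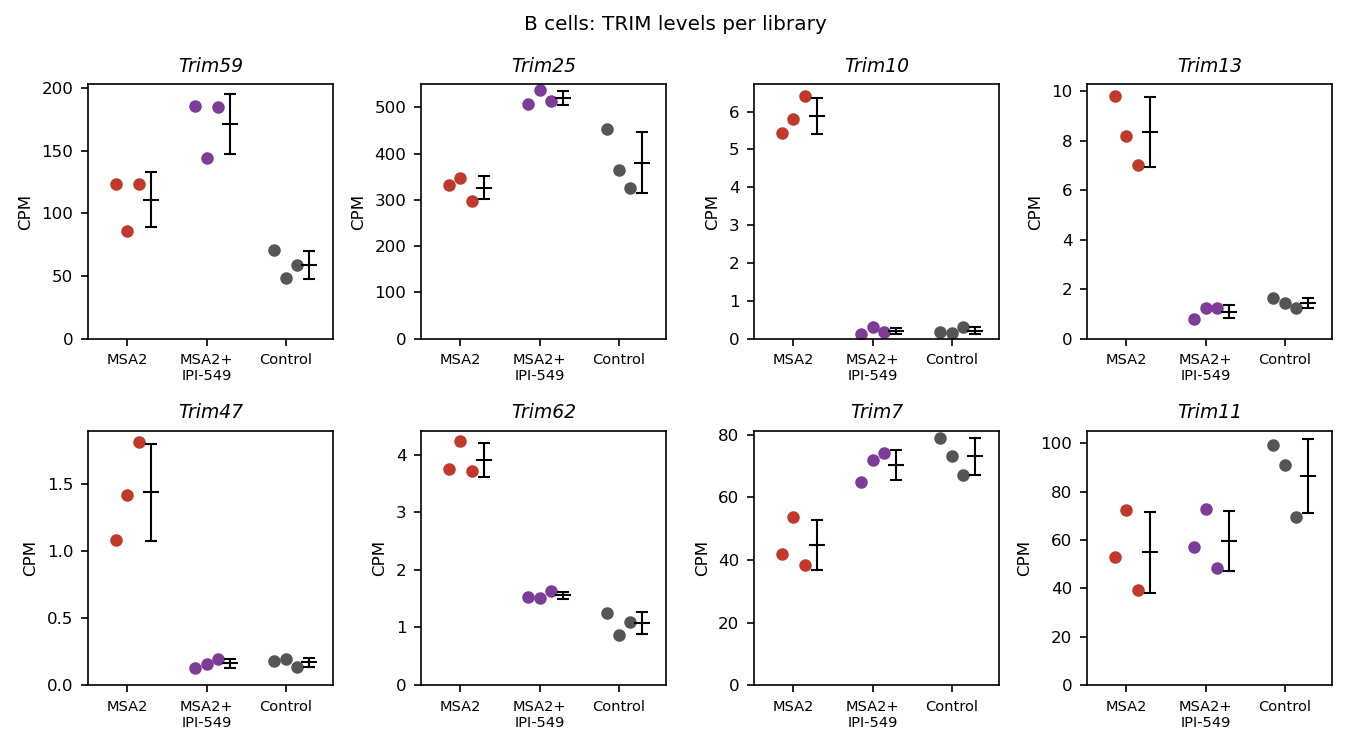
TMM-scaled CPM of 8 TRIM genes in each B cell library, by group; points are libraries, and the bar beside them is the mean with SD (n = 3 each). Trim10, Trim13, Trim47 and Trim62 are highest in the MSA2 libraries, Trim59 and Trim25 in the combination libraries, and for Trim7 the MSA2 libraries lie below the combination and Control libraries.

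Trim62, a ligase for CARD9, had 3.76, 4.24 and 3.72 CPM in MSA2 B cells and 1.26, 0.874 and 1.10 CPM in Control (1.85 ± 0.18, adjusted p = 9.45e-06). Trim16 had 5.76, 4.18 and 3.27 CPM with MSA2 and 1.5, 1.14 and 1.10 CPM in Control (1.82 ± 0.23, adjusted p = 7.62e-05). Trim2, a ligase known from neurons, had 2.61, 2.54 and 2.86 CPM with MSA2 and 1.22, 0.568 and 0.697 CPM in Control (1.68 ± 0.27, adjusted p = 0.000371). None of these pairs of groups overlapped. In BMDC Control, Trim13, Trim47, Trim62, Trim16 and Trim2 were all called higher than in B cell Control. Of all genes tested, 39.3% were called higher in that comparison and 40.6% lower, and cell type and sequencing project cannot be told apart in it. Of the other genes that rose with MSA2 in B cells, Trim36 was also called higher in BMDC Control, while Trim59, Trim56 and Trim30a were called lower there and Trim10 had 0 counts. What these calls mean for the rises with MSA2 was not tested. Trim56 had 65.9, 77.9 and 60.6 CPM with MSA2 and 47.3, 48.4 and 47.7 CPM in B cell Control (0.51 ± 0.09, adjusted p = 0.00101). Trim36 (0.46 ± 0.14, adjusted p = 0.0181) and Trim30a (0.21 ± 0.06, adjusted p = 0.0162) were the smaller rises. Both were lost without Control replicate 1 or 2, Trim36 also without MSA2 replicate 3, with adjusted p up to 0.0607 and 0.0729.

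Among the genes that fell in B cells with MSA2, Trim7 had 42.0, 53.7 and 38.5 CPM with MSA2, against 79.2, 73.1 and 67.1 CPM in Control (-0.71 ± 0.12, adjusted p = 0.000577). Trim44, a deubiquitinase-like member that lacks a RING, had 89.8, 101 and 86.9 CPM with MSA2 and 118, 122 and 130 CPM in Control (-0.41 ± 0.07, adjusted p = 0.000919). In both genes the groups stood apart. Trim35 (-0.35 ± 0.07), Trim27 (-0.29 ± 0.08) and Trim5 (-0.28 ± 0.08) fell as well. Trim11, Trim34a and Trim24 were less steady. Trim11 had 53.1, 72.3 and 39.2 CPM with MSA2 and 99.2, 90.9 and 69.3 CPM in Control, which overlapped (-0.66 ± 0.22, adjusted p = 0.0296). It was lost without MSA2 replicate 1 or 3 or Control replicate 1 or 2 (adjusted p up to 0.0939). Trim34a had 55.4, 48.5 and 67.5 CPM with MSA2 and 73.9, 71.4 and 74.3 CPM in Control (-0.36 ± 0.12, adjusted p = 0.0329), and was lost without any 1 of the Control libraries or MSA2 replicate 1 or 2 (up to 0.101). Trim24 (-0.20 ± 0.07, adjusted p = 0.0392) was lost on leaving out any of 7 libraries, all but MSA2 replicate 2 and combination replicate 3 (up to 0.129). B cell markers had a median log2 fold change of -0.89 in the same comparison.

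Trim25 and Trim21, which rose in BMDC, were not called in B cells with MSA2. Trim25 had 333, 347 and 298 CPM with MSA2 and 452, 364 and 325 CPM in Control (-0.22 ± 0.12, adjusted p = 0.147), and the groups overlapped. Trim21 had 22.0, 22.8 and 17.5 CPM with MSA2 and 17, 16.7 and 19.1 CPM in Control (0.24 ± 0.11, adjusted p = 0.105). Trim14 had 14.1, 16.3 and 16.5 CPM with MSA2 and 13.9, 15.5 and 17.6 CPM in Control, with a log2 fold change of 0.00 to 2 decimals. Typical interferon-stimulated genes did respond in these libraries. Ifit1 averaged 571 ± 132 CPM in MSA2 B cells and 1.69 ± 0.33 CPM in Control (SD, n = 3 each), and 28 of 36 listed interferon-stimulated genes were called higher and 0 lower, with a median log2 fold change of 0.88. In BMDC 30 of 36 were called higher with MSA2 and 0 lower, with a median of 1.52. The shares of all genes called higher were 24.9% in B cells and 14.6% in BMDC.

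With the combination, few TRIM genes were called against Control in B cells, though 8 had an unadjusted p under 0.05. Of 42 genes 1 was called higher and 0 lower (2.38%), against 0.686% and 0.371% of all genes tested (1.06% in either direction). That gene was Trim59 (chromosome 3, 69035288 to 69044755), a membrane-anchored member that binds the signalling protein ECSIT. Trim59 had 186, 144 and 185 CPM with the combination, against 70.4, 48.0 and 59.0 CPM in Control (1.54 ± 0.17, adjusted p = 0.000743). With MSA2 alone it had 124, 85.6 and 124 CPM (0.91 ± 0.17 against Control, adjusted p = 0.00127). The 3 groups did not overlap, with the combination highest. Its call in the combination held on leaving out any 1 library. In the combination libraries the summed T cell, neutrophil and NK cell markers lay below their Control ranges given above, and the monocyte and erythroid sums overlapped with Control. Dendritic cell markers summed to 1420 to 1760 CPM with the combination and 1190 to 1446 CPM in Control. The part of these markers in the Trim59 difference was not tested.

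Trim25 had 508, 538 and 514 CPM with the combination in B cells and 452, 364 and 325 CPM in Control. All combination libraries were higher, but the log2 fold change of 0.45 ± 0.12 had an adjusted p of 0.133. It was called without Control replicate 1 (0.59, adjusted p = 0.0231), without a filter on low counts (adjusted p = 0.0255) and by DESeq2 (adjusted p = 0.00931). Of the interferon-stimulated genes 12 of 36 were called higher with the combination and 0 lower, against 0.686% and 0.371% of all genes tested. Their median log2 fold change was 0.14. Ifit1 averaged 563 ± 91 CPM with the combination (SD, n = 3).

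The combination against MSA2 in B cells asked what IPI-549 changed on top of MSA2. It shares the MSA2 libraries with the comparison above, so a gene high in those libraries moves in opposite directions in the 2 comparisons by construction. Of 42 genes 8 were called higher and 9 lower (40.5%), against 14.1% and 22.9% of all genes tested (37.0% in either direction). Trim10 had 0.130, 0.298 and 0.176 CPM with the combination and 5.43, 5.82 and 6.40 CPM with MSA2 (-4.86 ± 0.30, adjusted p = 2.22e-07). Trim47 (-3.13 ± 0.33), Trim13 (-2.94 ± 0.21), Trim16 (-2.26 ± 0.24), Trim2 (-2.0 ± 0.27) and Trim62 (-1.32 ± 0.18) were lower as well. Trim10 and Trim47, both among the 9 called lower, passed the rule in B cells through the MSA2 group. Part of their fall therefore comes with the choice of members. Trim13 had 0.801, 1.24 and 1.23 CPM with the combination, beside 1.62, 1.44 and 1.21 CPM in Control. All 12 T cell, 12 neutrophil and 12 monocyte markers were likewise called lower in the combination than with MSA2, and their part was not tested.

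Trim25 rose in the combination, at the 508 to 538 CPM given above, against 298 to 347 CPM with MSA2 (0.67 ± 0.12, adjusted p = 0.000752). Of the 12 B cell markers, 11 were called higher, against 14.1% of all genes tested, and the list median was 0.89. The part of these markers in the TRIM changes was not tested. Trim7 had 64.8, 72.1 and 74.2 CPM with the combination and 42.0, 53.7 and 38.5 CPM with MSA2 (0.65 ± 0.12, adjusted p = 0.0011). Trim59 rose by 0.63 ± 0.17 (adjusted p = 0.0128), Trim34a by 0.51 ± 0.12 (0.00616) and Trim44 by 0.38 ± 0.07 (0.00171). Trim32, Trim56, Trim30a, Trim5, Trim27 and Trim35 were called with changes under 0.6. Of these, Trim32 was lost without MSA2 replicate 1 or 2 or combination replicate 2 or 3 (adjusted p up to 0.113). Trim35 was lost without MSA2 replicate 1 or combination replicate 1 or 2 (up to 0.0722) and Trim30a without MSA2 replicate 1 or combination replicate 1 (up to 0.0664). Trim56 was lost on leaving out any of 7 of the 9 libraries, all but MSA2 replicate 3 and combination replicate 2 (up to 0.149). Trim5 was lost without MSA2 replicate 1 or 2, any combination library or Control replicate 2 (up to 0.114).

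The difference between cell types was then tested in 1 fit of all 17 libraries. For MSA2 against Control, the effect in BMDC minus that in B cells was called for 22 of 44 genes, 11 higher in BMDC and 11 lower (50%), against 16.3% and 20.7% of 17740 genes (37.0% in either direction). Of the regulators of nucleic acid sensing, 4 of 16 were called higher in BMDC and 6 lower, and of the chromosome 7 cluster 4 of 10 were called higher and 0 lower. Trim25 changed by 1.11 in BMDC and by -0.22 in B cells, a difference of 1.34 ± 0.13 (adjusted p = 2.63e-07). Trim34a differed by 0.92 ± 0.18 (adjusted p = 0.000448), Trim21 by 0.86 ± 0.18 (0.000991), Trim30b by 0.86 ± 0.16 (0.000296), Trim12a by 0.64 ± 0.11 (0.000167) and Trim26 by 0.56 ± 0.12 (0.00147). Trim30c, although called in BMDC and not in B cells, did not pass the test of the difference (0.74 ± 0.29, adjusted p = 0.0529). On the lower side, Trim47 changed by -0.74 in BMDC and by 3.06 in B cells, a difference of -3.79 ± 0.28 (adjusted p = 3.5e-09), and Trim13 differed by -2.69 ± 0.21 (9.1e-09). In B cells Trim47 passed the rule through the MSA2 group, so part of its 3.06 comes with the choice of members. Because the B cell MSA2 libraries differ in markers of other cells, and the cell types were sequenced as separate sets, these causes cannot be told apart from cell type.

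**Figure D4:**
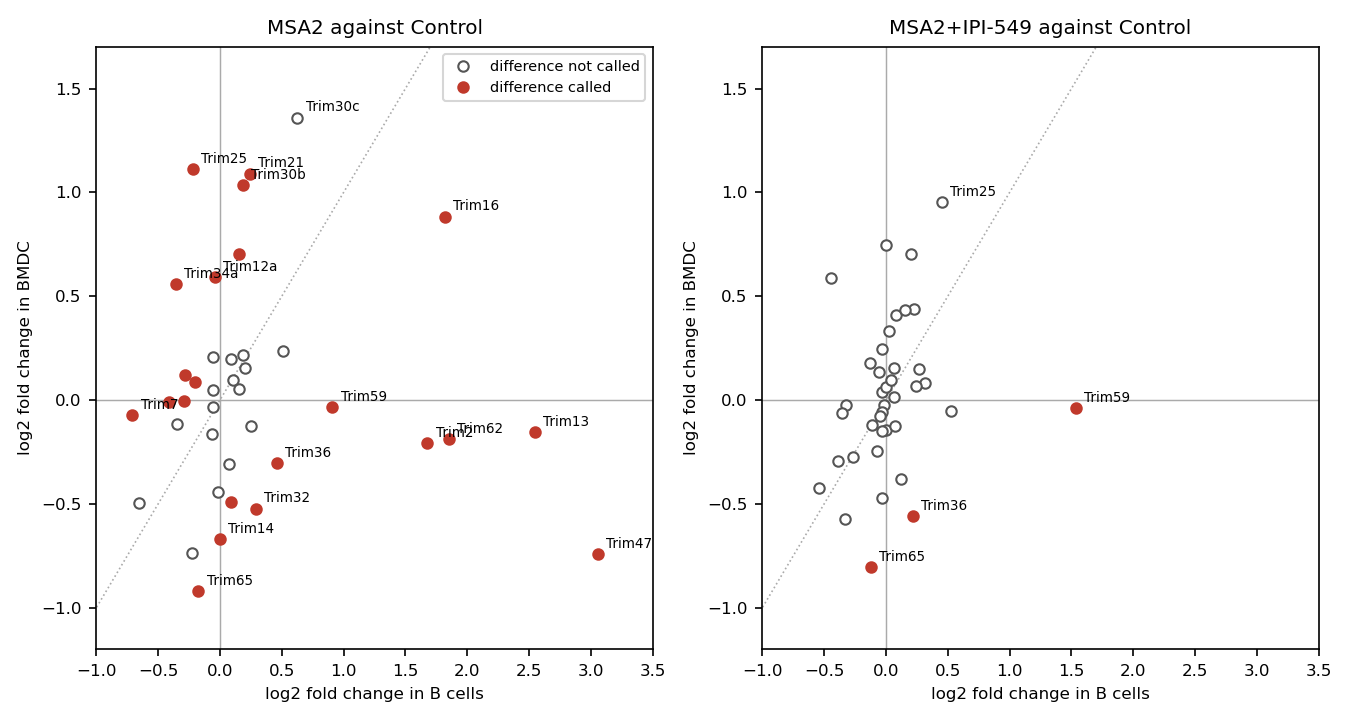
Log2 fold change against Control in BMDC (vertical) and B cells (horizontal) for the 39 TRIM genes kept in both, for MSA2 (left) and the combination (right). Filled points have a called difference between cell types and the dotted line marks equal change; with MSA2, Trim25 and Trim21 lie high on the left and Trim47 and Trim13 low on the right, while with the combination Trim59 stands alone on the right.

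Between the combination and MSA2 the difference was called for 6 genes higher in BMDC and 9 lower (34.1%), against 15.3% and 8.83% of all genes (24.1% in either direction). Among the 9 is Trim34b, which was kept through the B cell table alone and had 0 counts in the BMDC combination libraries.

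Of the 39 genes kept in both cell types, 2 were called higher with MSA2 in both (Trim16 and Trim56), 1 lower in both (Trim11), 1 higher in B cells and lower in BMDC (Trim47) and 1 lower in B cells and higher in BMDC (Trim34a). These are 5.13%, 2.56%, 2.56% and 2.56% of the 39. Of the 13570 genes tested in both cell types, 4.65% were called higher in both, 2.46% lower in both, 4.8% higher in B cells and lower in BMDC and 3.34% lower in B cells and higher in BMDC, so the TRIM shares were near those of all genes. For the combination against Control the difference was called for 0 genes higher in BMDC and 3 lower (6.82%), against 2.14% and 0.902% of all genes (3.04% in either direction). Trim59 changed by -0.04 in BMDC, with 31.0 and 27.3 CPM in the combination and 31.9, 30.7 and 27.5 CPM in Control. The difference from B cells was -1.61 ± 0.23 (adjusted p = 0.000362). Trim36 (-0.81 ± 0.20, adjusted p = 0.0342) and Trim65 (-0.71 ± 0.17, adjusted p = 0.0252) were the other calls. Each was lost on leaving out any of 7 libraries, with adjusted p up to 0.173 for Trim36 and 0.139 for Trim65. The libraries that ended both calls were BMDC Control replicate 1, both BMDC combination libraries, B cell Control replicates 1 and 2 and B cell combination replicate 3. BMDC Control replicate 3 also ended Trim36, and B cell combination replicate 1 also ended Trim65.

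The chromatin corepressors of the TIF1 group moved little. Trim28, the partner of KRAB zinc finger proteins, had 118, 107 and 108 CPM with MSA2, 127 and 131 CPM with the combination and 126, 121 and 118 CPM in Control in BMDC. In B cells it had 193, 181 and 245 CPM with MSA2, 190, 195 and 261 CPM with the combination and 171, 169 and 179 CPM in Control, with 1 high library in each treated group. Every treated B cell library of Trim28 lay above every B cell Control library, yet none of these comparisons was called for Trim28. Trim24, also of this group, was called lower with MSA2 in B cells, by the small change given above. Trim33, a SMAD4 regulator, was not called in any comparison with Control, at 84.9 to 91.0 CPM with MSA2 and 91.0 to 93.2 CPM in Control in B cells. Of 15 listed partners of Trim28 in silencing, 5 were called higher and 2 lower with MSA2 in BMDC, against 14.6% and 13.5% of all genes. In B cells 2 were called higher and 1, Trim24, lower with MSA2, against 24.9% and 18.5% of all genes. The BMDC calls were led by Daxx (1.02 ± 0.15, adjusted p = 0.000536), a histone chaperone, and Atf7ip (-0.54 ± 0.09, adjusted p = 0.000908), a partner of the methyltransferase SETDB1. Setdb1 itself had a log2 fold change of -0.24 ± 0.06 in BMDC (adjusted p = 0.016) and 0.22 ± 0.07 in B cells (adjusted p = 0.0267) with MSA2.

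Partners and targets of the antiviral TRIM ligases were counted beside them. With MSA2 in BMDC 12 of 27 were called higher and 2 lower, against 14.6% and 13.5% of all genes, with a median log2 fold change of 0.15. In B cells 8 were called higher and 8 lower, against 24.9% and 18.5% of all genes, with a median of 0.08. Ddx58, which encodes RIG-I, the target of Trim25, averaged 65.5 ± 11 CPM with MSA2 and 22.3 ± 1.8 CPM in Control in BMDC (1.55 ± 0.13, adjusted p = 5.12e-06). In B cells Ddx58 averaged 82.2 ± 1.4 CPM with MSA2 and 77.6 ± 5.6 CPM in Control and was not called (0.08 ± 0.07, adjusted p = 0.361). Irf7, an interferon regulatory factor, rose by 1.29 ± 0.13 in BMDC (adjusted p = 2.31e-05) and by 1.29 ± 0.12 in B cells (4.64e-06). Sting1 was not called with MSA2 in either cell type. With the combination, 8 of the 27 were called higher and 0 lower in BMDC, against 7.51% and 5.38% of all genes. In B cells 1, Irf7, was called higher with the combination and 0 lower, against 0.686% and 0.371% of all genes. Of TRIM relatives under other symbols, Mefv, which encodes pyrin, fell by 1.31 ± 0.24 with MSA2 in BMDC (adjusted p = 0.0019). In B cells Mefv rose by 4.20 ± 0.30 with MSA2 (adjusted p = 6.17e-07), at 9.18 ± 3.3 CPM with MSA2 and 0.496 ± 0.066 CPM in Control (SD, n = 3 each). In total 4 of 9 tested relatives were called higher and 2 lower with MSA2 in B cells, against 24.9% and 18.5% of all genes. In BMDC 0 of 7 were called higher and 1 lower with MSA2, against 14.6% and 13.5%.

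Of the 69 genes named Trim, 25 were kept in neither cell type, and 6 of them had 0 counts in every library. Among the 25 were Trim38, a regulator of TLR and cGAS signalling, whose highest group mean was 0.0298 CPM, and Trim31, an interferon-responsive ligase, at 0.00961 CPM. Just inside the rule stood Trim47 at a mean of 0.61 CPM in B cells and Trim46 at 1.16 CPM in BMDC, and just outside stood Trim15 at 0.317 CPM in B cells and Trim72 at 0.248 CPM in BMDC. Trim3, Trim12c, Trim23, Trim30d, Trim37, Trim41, Trim45, Trim46 and Trim68, beside Trim28 and Trim33, were kept in both cell types and called in none of the 6 comparisons within a cell type.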

How the data were processed

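RNA from 9 B cell and 8 BMDC libraries was sequenced. The authors deposited 1 table per cell type of expected counts for each gene, written as whole numbers. Per the submitters' processing notes, the tools were cutadapt 4.8, FastQC 0.11.8, STAR 2.7.8a, RSEM 1.3.3 and MultiQC 1.20, with the GRCm38 (mm10) build. RSEM divides reads that match several genes, so values of near-identical members depend on that division. Strand and annotation release are not given in the sources used here. Counts were rounded to whole numbers before testing.

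The 3 groups of a cell type entered 1 fit, made in edgeR 4.0.16 under R 4.3.3. Libraries were scaled by TMM, low genes were dropped by filterByExpr, and the quasi-likelihood F test was used. Differences between cell types and Control against Control used 1 fit of all 17 libraries. P-values were adjusted over all genes tested, and a gene was called at 0.05. CPM values use TMM-scaled totals of each table, and the rule for members uses raw totals. For genes with many counts, counting error is small at these depths, and precision is limited by the number of libraries. Counting error is larger for low genes, such as Trim10 and Trim47 with 29 and 24 counts over the B cell Control libraries. The members, role lists, marker lists and tests were chosen with earlier results of these data known. Every member could be named. Values per library were given for members called with at least 2-fold change and 2 CPM, the 3 largest calls per direction and a list of key members, and other examples were chosen after their values were seen. Positions, exon overlap and shared 50-base words come from GENCODE M21 on GRCm38, promoters from RefSeq. Other settings tried were DESeq2 1.42.0, limma-voom (limma 3.58.1), glmTreat at 1.5-fold, scaling by RLE or upper quartile, filters of none or of 1 CPM in at least 3 libraries, a fit of the compared groups only, a replicate block from the title suffix, and each library left out. In B cells the suffix may pair the combination and MSA2 libraries, which the main test did not use. The deviations from the group means of all 3 same-suffix pairs correlated above 0.1 (0.12, 0.15 and 0.26), while no label says what a suffix marks. Deviations within a group of 3 sum to 0, so these correlations are not independent. The test was checked on simulated data.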

Additional observations from a re-analysis of the deposited data

Results flagged for a closer look

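The effect of MSA2 against Control differed between BMDC and B cells, by a test of the difference in edgeR, for 22 members. The log2 differences, BMDC minus B cells, were above 0 for Trim25 (1.34), Trim34a (0.92), Trim30b (0.86), Trim21 (0.86), Trim12a (0.64), Trim7 (0.64), Trim26 (0.56), Trim5 (0.41), Trim44 (0.41), Trim27 (0.30) and Trim24 (0.30). They were below 0 for Trim47 (-3.79), Trim13 (-2.69), Trim62 (-2.03), Trim2 (-1.87), Trim59 (-0.94), Trim16 (-0.92), Trim32 (-0.80), Trim36 (-0.76), Trim65 (-0.74), Trim14 (-0.66) and Trim8 (-0.57). Of these, Trim14 was lost without B cell Control replicate 1 (adjusted p = 0.0512). Trim24 was lost without BMDC MSA2 replicate 2 or 3, BMDC Control replicate 1 or 3, B cell MSA2 replicate 1 or 3 or B cell Control replicate 1 (up to 0.0665). Trim27 was lost without BMDC MSA2 replicate 1 or 2, BMDC Control replicate 1 or 2, B cell MSA2 replicate 2 or B cell Control replicate 2 or 3 (up to 0.0777). Trim5 was lost without BMDC MSA2 replicate 2 or 3, BMDC Control replicate 1 or 3, B cell MSA2 replicate 2 or B cell Control replicate 3 (up to 0.0679).

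For the combination against Control, the difference was past the threshold for Trim59 (-1.61), Trim36 (-0.81) and Trim65 (-0.71). For the combination against MSA2 it was past the threshold for 15 members. Apart from Trim34b, these ran from Trim25 at -0.87 ± 0.14 (SE) to Trim47 at 3.58 ± 0.29. Among the 15 is Trim34b, with 0 counts in the BMDC combination libraries, whose fitted value is no measure of size. These B cell differences contain the MSA2 libraries with raised markers of other cells. Trim47 passed the rule in B cells through that MSA2 group, so part of its differences comes with the choice of members.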

How the results depend on the processing

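No member changed direction past its threshold in any alternative. The counts of called members moved beyond 1.5 times as follows. With glmTreat at 1.5-fold, calls fell to 6 for MSA2 against Control in B cells, 6 for the combination against MSA2 in B cells, 6 for MSA2 and 1 for the combination against Control in BMDC, and to 5, 1 and 6 for the cell type differences in MSA2, combination and combination against MSA2. Fewer members reach a stricter size. For the combination against Control in B cells, 2 were called without a filter on low counts and 3 with DESeq2, with Trim25 in both and Trim30d in DESeq2. For the combination against MSA2 in BMDC, calls came to 3 without a filter and 1 with DESeq2. For the cell type difference in the combination against Control, they came to 5 without a filter, 7 with DESeq2 and 1 with limma-voom. The cause was not tested.

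Leaving out 1 library gave 13 to 18 calls for MSA2 against Control, 1 to 2 for the combination against Control and 12 to 19 for the combination against MSA2 in B cells. In BMDC it gave 15 to 19, 4 to 12 and 0 to 0 in the same order. The differences between cell types gave 19 to 23, 1 to 6 and 8 to 15, the last lowest without BMDC combination replicate 2, and Control against Control 36 to 40. For the combination difference the 6 came without B cell MSA2 replicate 3, and the 1 without any of the 6 libraries that ended both Trim36 and Trim65. Where a group was left with 1 library, it was assumed to vary like the others.

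Same-suffix libraries correlated at -0.04 to 0.08 between Control and the treated groups of B cells, and at -0.11 to 0.13 in BMDC, 1 of 7 pairs above 0.1, so the suffix was not taken to pair them there. Between the combination and MSA2 in B cells, where all 3 pairs were above 0.1, the block kept all 17 calls and added 0. Across groups, 8 of 9 B cell libraries and 2 of 8 BMDC libraries correlated best with one of their own suffix, a hint from the data and not from the design. With the suffix as a replicate block, calls were 20, 2 and 17 in B cells and 16, 10 and 0 in BMDC, the 2 being Trim59 and Trim11 (-0.55, adjusted p = 0.0444). Upper quartile factors moved the median of all genes by -0.109 in BMDC Control against B cell Control.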
